A study of Mus musculus with 9 samples.

Results

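The 9 genes described here make, store, take up and break down catecholamines: Th, Ddc, Dbh, Gch1, Slc18a1, Slc18a2, Slc6a2, Cyb561 and Maoa. They were taken by gene symbol, with every probe set annotated to a single one of these symbols, which gave 19 of the 45101 probe sets on the array and 9 of 18193 named genes. They were measured in Neuro2a, a mouse neuroblastoma cell line, as total RNA on 9 single-colour arrays. The siRNA used for 48 h was a control in the siControl group, targeted Myt1 in the siMyT1 group and targeted LSD1, the product of Kdm1a, in the siLSD1 group, with 3 arrays per group. All groups share the same line and the same exposure time, and the groups differ in the siRNA target. The labels do not say whether the arrays within a group stem from separate cultures, and every p-value measures the spread between these samples, which may be technical.

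Catecholamine synthesis starts when tyrosine hydroxylase, the product of Th, turns tyrosine into DOPA, the step that limits the rate of the pathway. It needs tetrahydrobiopterin, a cofactor whose synthesis starts with the GTP cyclohydrolase encoded by Gch1. DOPA becomes dopamine through the decarboxylase Ddc, dopamine is pumped into vesicles by the monoamine transporters Slc18a1 (VMAT1) and Slc18a2 (VMAT2), and dopamine beta-hydroxylase (Dbh) turns it into noradrenaline there, with electrons that cytochrome b561 (Cyb561) carries from ascorbate. Slc6a2 takes released noradrenaline back up, and monoamine oxidase A (Maoa) degrades it. Neuroblastomas derive from the sympathoadrenal lineage, whose cells use this pathway. Myt1 is a neural zinc finger transcription factor, and LSD1 is a histone demethylase; the series addresses Myt1 as a subunit of a neural LSD1 complex.

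Values below are deposited linear intensities, in units of unknown size, and levels of different probe sets are not compared as amounts of RNA. Sums over a list add these intensities, so the brightest probe sets weigh most in them. Differences are on the scale log2(value + 0.196 units), which understates changes of dim genes, and adjusted p-values are from limma over all 18193 genes unless another fit is named, with a threshold of 0.05. Array medians lay between 0.302 and 0.424 units, and siMyT1 replicate 2 had the highest. Each siRNA target was low in its own knockdown: Myt1 averaged 13.5% of control in siMyT1, and Kdm1a averaged 15.5% of control in siLSD1. Kdm1a averaged 107% of control in siMyT1. Myt1 averaged 142% of control in siLSD1, with all arrays above control, and did not pass (log2 difference 0.49, adjusted p = 0.0643). Of 9 measured sympathoadrenal markers, Phox2a, Hand2, Gata2, Isl1, Insm1, Chga and Chgb averaged above 11 units in every group, Gata3 averaged 3.47 to 4.52 units, and Tfap2b, at 0.307 to 0.556 units, lay near the array medians. The cholinergic markers Chat, Slc18a3 and Slc5a7 summed to at most 0.626 units on any array, and 0 of 3 passed in any comparison. In such bulk RNA, fewer cells that express a gene and less RNA per cell cannot be told apart.

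The 2 genes that passed the test were Slc18a2 and Th, and both were lowest in siMyT1, intermediate in siControl and highest in siLSD1. Slc18a2 fell after siMyT1 to 77.4% of control and rose 2.06-fold after siLSD1. Th rose 1.53-fold after siLSD1, and its level in siMyT1, 81.0% of control, did not pass the test. The other 7 genes passed in none of the 3 comparisons. An F-test over the 3 groups called these same 2 of 9 genes, with 19.5% of all genes called, and 2 of 19 probe sets in a fit of every probe set, with 11.1% of all probe sets called.

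The promoters of Th and Slc18a2 are shown because these were the genes that passed the test. Each holds the palindrome TGACGTCA, the cyclic AMP response element, printed here in capitals within the mouse reference sequence (RefSeq, GRCm38.p6), 5′ to 3′ on the strand of the gene. The Th window is chr7:142899996-142900245 on the minus strand and ends at the base before the annotated transcription start. The Slc18a2 window is chr19:59260628-59260881 on the plus strand and runs 4 bases past the start.
Th: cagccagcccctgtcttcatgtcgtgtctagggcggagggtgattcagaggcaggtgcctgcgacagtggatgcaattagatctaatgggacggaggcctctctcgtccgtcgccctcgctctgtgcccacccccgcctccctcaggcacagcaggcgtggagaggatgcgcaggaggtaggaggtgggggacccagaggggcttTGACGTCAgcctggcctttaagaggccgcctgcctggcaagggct
Slc18a2: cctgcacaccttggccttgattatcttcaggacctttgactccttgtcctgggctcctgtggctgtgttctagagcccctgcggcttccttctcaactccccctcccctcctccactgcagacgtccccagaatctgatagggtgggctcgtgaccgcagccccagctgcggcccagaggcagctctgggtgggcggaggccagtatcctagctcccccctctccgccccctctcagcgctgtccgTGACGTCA

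In Th the element lay at positions -45 to -38 from the start site, and in Slc18a2 at -4 to 4. Windows of 300 bases, from 250 before to 50 after a start site, were in the reference table for 6 of the 9 genes, with 2 windows for Ddc. TGACGTCA was in the windows of 2 of these 6 genes and in 1.79% of all 32851 windows. Its core TGACG, searched on both strands and contained in the full element on each strand, was found in 5 of the 6 genes, including Gch1 at -88, Dbh at -222 and Maoa at -209, and in 20.8% of all windows. AAGTT, the core bound by Myt1 family zinc fingers, was in 1 of the 6 genes, namely Ddc, and in 39.3% of all windows. The homeodomain core TAATTA was in the windows of 0 of the 6 genes and 5.29% of all windows, the E-box CANNTG in 4 genes and 72.3%, and TATAAA in 2 genes and 13.6%. A match is a match of letters in this window, and its part in the changes was not tested.

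Slc18a2 loads dopamine and noradrenaline into vesicles, and its single probe set (1437079_at) had the lowest adjusted F-test p of the 9 genes (1.41e-07 by limma). It measured 4.92, 5.02 and 4.80 units in siControl, 3.75, 3.98 and 3.68 in siMyT1, and 10.2, 10.1 and 10.1 in siLSD1. No array of a group overlapped with an array of another group, and the spread within groups was small, at SDs of 0.11, 0.16 and 0.060 units around means of 4.92, 3.80 and 10.1 (n = 3 each). The log2 difference from control was -0.35 in siMyT1 (SE 0.07, 95% interval -0.50 to -0.21, adjusted p = 0.00611) and 1.01 in siLSD1 (SE 0.07, 0.87 to 1.15, adjusted p = 1.37e-06). By unadjusted p this was rank 364 of 18193 genes in siMyT1 and rank 15 in siLSD1. Between the knockdowns, siLSD1 was 2.66-fold above siMyT1 (log2 difference of siMyT1 minus siLSD1 -1.37, SE 0.07, adjusted p = 8.28e-08), the rank 6 gene of that comparison. Both comparisons with control use the same control arrays.

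Th, the gene of the rate-limiting enzyme, also has 1 probe set (1420546_at). It measured 2.12, 2.02 and 2.30 units in siControl, 1.68, 1.73 and 1.81 in siMyT1, and 3.32, 3.14 and 3.43 in siLSD1. All siLSD1 arrays lay above all control arrays, and all siMyT1 arrays lay below them, with the gap between siMyT1 and control smaller than that between siLSD1 and control. After siLSD1 the log2 difference was 0.58 (SE 0.10, 95% interval 0.36 to 0.79, adjusted p = 0.00262), rank 510 by unadjusted p. After siMyT1 it was -0.28 (SE 0.10, interval -0.49 to -0.06), with an unadjusted limma p of 0.0170 and an adjusted p of 0.129, so the lower neighbours in the order of levels did not differ beyond the threshold. In siMyT1 against siLSD1 the difference was -0.85 (SE 0.10, adjusted p = 8.62e-05). The order of group means was thus the same for Th and Slc18a2. With each group's mean removed, the remaining deviations of the pair over the 9 arrays had a Pearson r of -0.46, so the likeness lies in the group means.

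**Figure D1:**
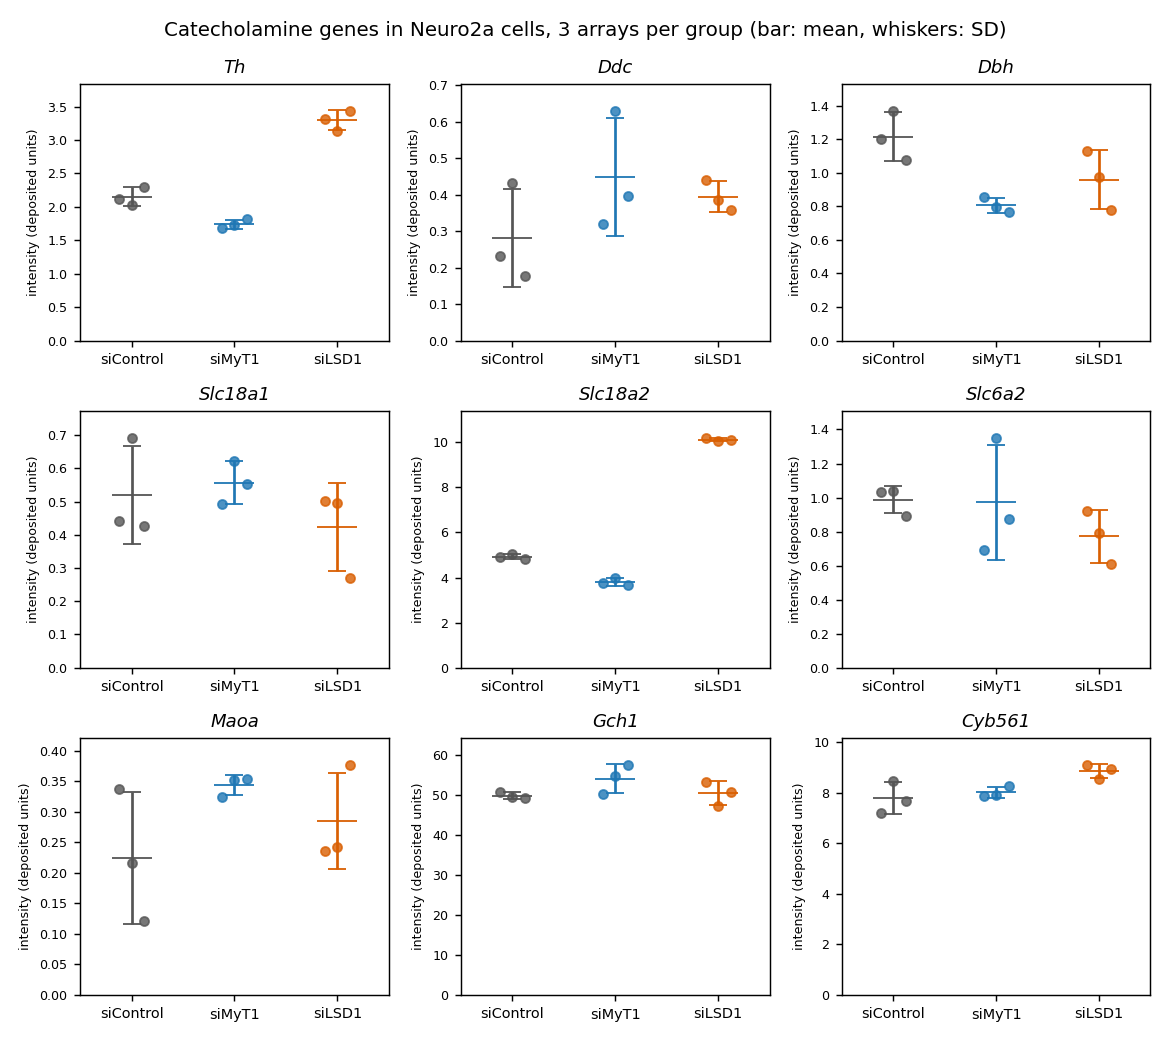
Deposited intensity (y axis, linear, from 0) of the probe set that stands for each of the 9 genes, by siRNA group (x axis); points are arrays, bars are means and whiskers are SDs over 3 arrays. For Th and Slc18a2 the groups are apart, with siLSD1 highest (means of 3.29 and 10.1) and siMyT1 lowest (1.74 and 3.80), while for Ddc, Slc18a1, Slc6a2, Maoa and Gch1 the points of all groups overlap.

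Members were read against the share of all genes called in the same comparison. In siMyT1 against siControl, 1 of 9 was lower (2.29% of all genes) and 0 were higher (5.12%). In siLSD1 against siControl, 2 of 9 were higher (3.97% of all genes) and 0 were lower (4.93%). In siMyT1 against siLSD1, 2 of 9 were lower (5.58% of all genes) and 0 were higher (13.2%). Arrays did not overlap between groups for 3 of 9 genes in each comparison, where the share of all genes was 24.0%, 26.8% and 33.0% in the same order. Those were Th, Slc18a2 and Dbh in siMyT1 against siControl, and Th, Slc18a2 and Cyb561 in the other comparisons. The median log2 difference of the 9 genes was 0.04, 0.18 and 0.10, beside 0.05, -0.03 and 0.09 over all genes. The shares of calls that were higher over all genes, 69.1%, 44.6% and 70.3%, became 55.6%, 50.8% and 55.7% after quantile normalization and 56.9%, 66.2% and 42.4% after median centring, which moved the median of all genes in siMyT1 against siLSD1 from 0.09 to -0.04.

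**Figure D2:**
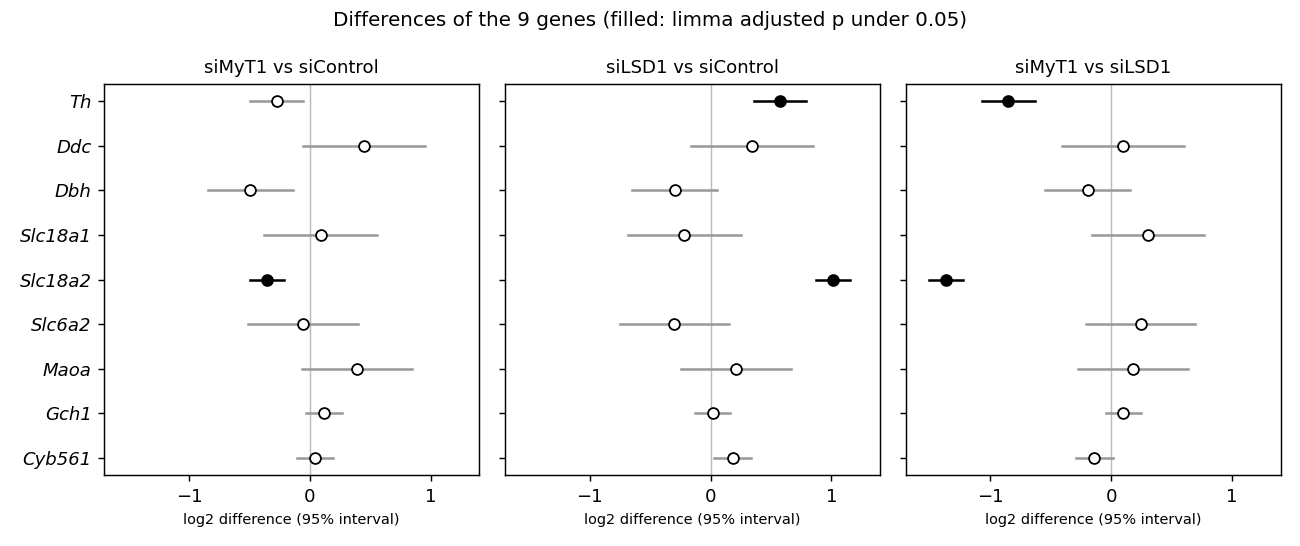
Log2 differences (x axis, limma estimate with 95% interval) of the 9 genes (y axis) in siMyT1 against siControl, siLSD1 against siControl and siMyT1 against siLSD1; filled points passed an adjusted p of 0.05. Filled points are Slc18a2 in all 3 panels (-0.35, 1.01 and -1.37) and Th in the siLSD1 and direct panels (0.58 and -0.85); the intervals of Ddc, Slc18a1, Slc6a2 and Maoa are the widest.

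Of the synthesis enzymes after Th, Dbh and Ddc did not pass. Dbh, which makes noradrenaline inside the vesicle, has 3 probe sets. The brightest of them (1459848_x_at) measured 1.20, 1.37 and 1.08 units in siControl, 0.853, 0.796 and 0.765 in siMyT1, and 1.13, 0.971 and 0.775 in siLSD1. The siMyT1 arrays lay below the control arrays without overlap, and the siLSD1 arrays overlapped with both. The log2 difference in siMyT1 was -0.49 (SE 0.16, 95% interval -0.85 to -0.14, adjusted p = 0.0931), and in siLSD1 it was -0.30 (SE 0.16, -0.65 to 0.06, adjusted p = 0.338). The Dbh difference in siMyT1 passed the threshold after quantile normalization (adjusted p = 0.0271), median centring (0.0488) and a filter on dim probe sets (0.0274). An identifier ending in _x_at marks probes that may bind several transcripts, and the other Dbh probe sets differed less from control in siMyT1, by -0.13 (1450670_at) and -0.32 (1447592_at), in a fit of every probe set where neither passed (adjusted p = 0.846 and 0.792). In siLSD1, where Th and Slc18a2 rose, all 3 Dbh probe sets had log2 differences below 0, from -0.30 to -0.09, and none passed.

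Ddc, the decarboxylase that makes dopamine, was near the array medians. Its brighter probe set (1426215_at) measured 0.232, 0.432 and 0.176 units in siControl, 0.319, 0.629 and 0.397 in siMyT1, and 0.441, 0.384 and 0.357 in siLSD1. The groups overlapped, and siMyT1 replicate 2, whose array median was also the highest, held the highest value. The differences from control were 0.44 in siMyT1 (95% interval -0.06 to 0.95, adjusted p = 0.316) and 0.34 in siLSD1 (-0.16 to 0.85, adjusted p = 0.468). Without siMyT1 replicate 2 the siMyT1 difference was 0.25 (adjusted p = 0.655), and that of siMyT1 against siLSD1 turned from 0.10 to -0.093, neither passing. The other Ddc probe set (1430591_at) did not exceed 0.0454 units on any array.

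Gch1, which supplies the cofactor of tyrosine hydroxylase, was bright by both of its probe sets and close to level by the brighter. The brighter (1420499_at) measured 50.7, 49.5 and 49.1 units in siControl, 50.1, 54.8 and 57.3 in siMyT1, and 53.3, 47.2 and 50.8 in siLSD1. The arrays of the groups overlapped in each comparison. Its log2 difference from control was 0.12 in siMyT1 (SE 0.07, 95% interval -0.03 to 0.26, adjusted p = 0.377) and 0.02 in siLSD1 (SE 0.07, -0.13 to 0.16, adjusted p = 0.936). The upper bound of 0.16 in siLSD1 lies below the lower bounds of the intervals for Th, 0.36, and Slc18a2, 0.87. The other probe set (1429692_s_at) averaged 17.3, 15.2 and 17.4 units in siControl, siMyT1 and siLSD1. All its siMyT1 arrays (14.5 to 15.6 units) lay below all siControl arrays (16.3 to 19.1) and all siLSD1 arrays (17.1 to 18.1). Its difference in siMyT1, -0.18, had the opposite sign and did not pass in the fit of every probe set (adjusted p = 0.227). In siMyT1 against siLSD1 its difference was -0.19, also not passing in that fit (adjusted p = 0.107).

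Cyb561, the electron carrier of the vesicle membrane, has 1 probe set (1417507_at). It measured 7.21, 8.48 and 7.68 units in siControl, 7.89, 7.89 and 8.28 in siMyT1, and 9.08, 8.53 and 8.96 in siLSD1. The siLSD1 arrays were the 3 highest, the lowest of them at 8.53 units and the highest control array at 8.48. The log2 difference in siLSD1 was 0.18 (SE 0.07, 95% interval 0.03 to 0.33, unadjusted limma p of 0.0213, adjusted p = 0.138), and in siMyT1 it was 0.04 (-0.11 to 0.19, adjusted p = 0.806). After quantile normalization the siLSD1 difference was 0.21 with an adjusted p of 0.0208, and that of siMyT1 against siLSD1 was -0.20 with an adjusted p of 0.0176, both past the threshold.

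The other vesicular transporter, the uptake transporter and the oxidase gave no call. By their brightest probe sets, Slc18a1 and Maoa lay on or near the array medians, and Slc6a2 lay above them on every array. Slc18a1, the VMAT typical of endocrine cells, measured 0.442, 0.690 and 0.426 units in siControl, 0.493, 0.622 and 0.553 in siMyT1, and 0.502, 0.494 and 0.269 in siLSD1 by its brightest probe set (1426595_at). Its difference in siLSD1 was -0.22 (95% interval -0.68 to 0.25, adjusted p = 0.660), an interval that lies below that of Slc18a2 in the same comparison. Slc6a2 measured 1.03, 1.04 and 0.894 units in siControl, 0.693, 1.35 and 0.875 in siMyT1, and 0.920, 0.789 and 0.610 in siLSD1 by the brightest of 4 probe sets (1447311_at). Its differences were -0.06 in siMyT1 (-0.51 to 0.40, adjusted p = 0.929) and -0.30 in siLSD1 (-0.75 to 0.15, adjusted p = 0.487).

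Maoa measured 0.337, 0.216 and 0.121 units in siControl, 0.325, 0.352 and 0.354 in siMyT1, and 0.235, 0.243 and 0.375 in siLSD1 (1428667_at). Its groups overlapped, and the differences were 0.39 in siMyT1 (95% interval -0.06 to 0.84, adjusted p = 0.328) and 0.21 in siLSD1 (-0.24 to 0.66, adjusted p = 0.658). The other Maoa probe set (1442676_at) differed by -0.51 in siMyT1, the opposite sign, at means of 0.193 units in siControl and 0.0791 in siMyT1, and did not pass (adjusted p = 0.259 in the fit of every probe set). Of the 19 probe sets, 7 had a mean below the pseudocount of 0.196 units, and all 7 were among the 10 that did not stand for a gene. Over the 10 probe sets that did not stand for a gene, the smallest adjusted p in any comparison was 0.107, that of Gch1 1429692_s_at in siMyT1 against siLSD1.

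**Figure D3:**
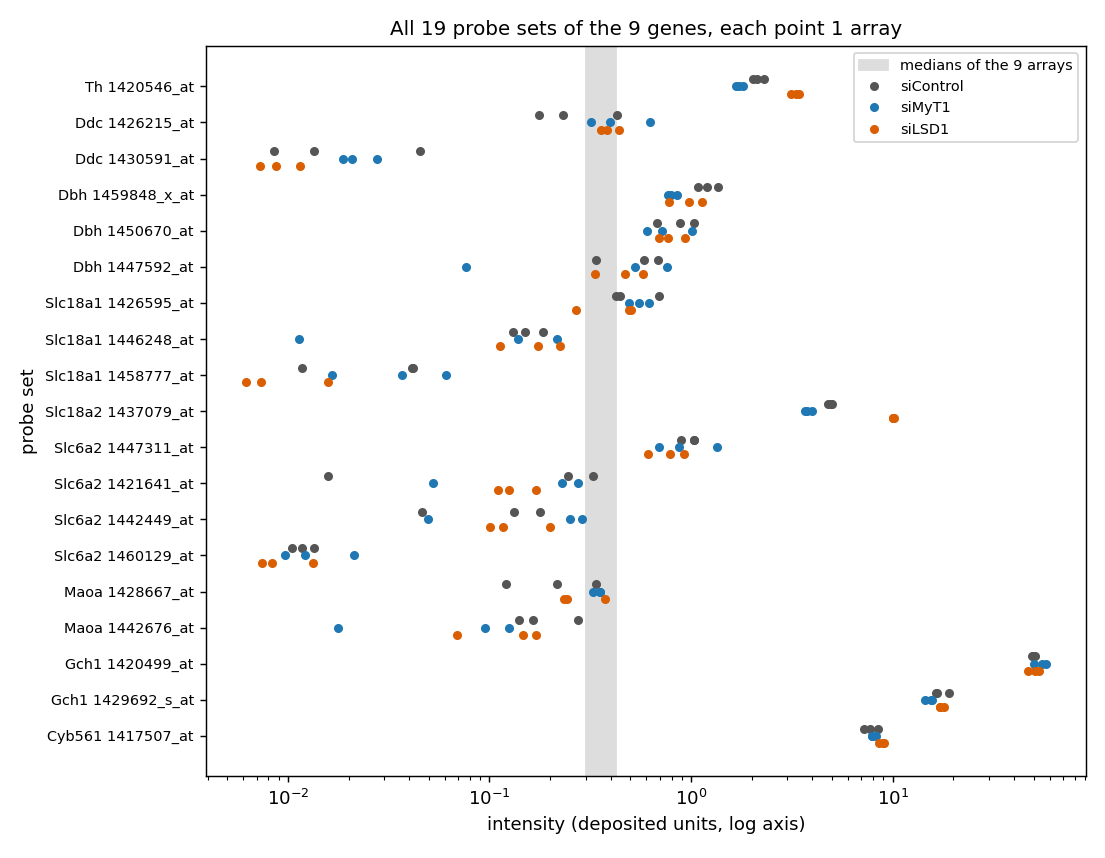
Deposited intensity (x axis, log scale) of all 19 probe sets of the 9 genes (y axis), with 1 point per array coloured by siRNA group and the range of the array medians, 0.302 to 0.424 units, in grey. Th, Slc18a2, Gch1 and Cyb561 lie above the grey band on every array, Ddc, Slc18a1 and Maoa by their brightest probe sets lie on or near it, and the dimmest probe sets scatter widely within each group.

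Around the members, 5 lists of other amine genes held 53 genes, of which 39 had a named probe set and 14 were not analysed here. In siMyT1 against siControl 2 of 39 rose (5.12% of all genes) and 0 fell (2.29%). In siLSD1 against siControl 2 rose (3.97%) and 1 fell (4.93%), and in siMyT1 against siLSD1 2 were higher (13.2%) and 3 lower (5.58%). The counts were near those shares or below them, and are no result about the lists. The median differences were 0.05 in each comparison, beside 0.05, -0.03 and 0.09 over all genes.

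Among 6 measured genes of tetrahydrobiopterin synthesis and recycling, Spr, sepiapterin reductase of the last synthesis step, rose in siMyT1 from 4.58 ± 0.60 to 6.49 ± 0.74 units (SD, n = 3; log2 difference 0.49, SE 0.12, adjusted p = 0.0244). It was also higher there than in siLSD1 (0.41, SE 0.12, adjusted p = 0.0268). Both calls were lost when single arrays were left out (siControl replicate 1 or 3 or siMyT1 replicate 2 or 3, adjusted p up to 0.107, and siMyT1 or siLSD1 replicate 2 or 3, up to 0.114). They were also lost in limma without the intensity trend (adjusted p = 0.0831 and 0.0759), and the difference from siLSD1 after median centring (0.29, adjusted p = 0.0586). Gchfr, the feedback regulator of GTP cyclohydrolase, measured 6.38 ± 0.49 units in siControl, 8.38 ± 1.4 in siMyT1 and 7.87 ± 0.42 in siLSD1 and did not pass (adjusted p = 0.0512 and 0.113). Qdpr, which recycles the cofactor, differed from control by 0.15 and 0.10 without passing.

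Of 13 measured enzymes of amine synthesis and breakdown other than the members, 3 passed in some comparison: Comtd1, Aldh2 and Tph2. In siMyT1 against siControl 1 rose (5.12% of all genes) and 0 fell (2.29%). In siLSD1 against siControl 2 rose (3.97%) and 1 fell (4.93%). In siMyT1 against siLSD1 1 was higher (13.2%) and 1 lower (5.58%). With so few genes, these counts are no result about the list. Comtd1, a relative of catechol-O-methyltransferase by its name, measured 4.69 ± 0.33 units in siControl, 5.37 ± 0.51 in siMyT1 and 7.44 ± 0.30 in siLSD1, a rise of 0.64 in siLSD1 (SE 0.08, adjusted p = 0.000301). Aldh2, the mitochondrial aldehyde dehydrogenase, which can oxidise the aldehydes that monoamine oxidase forms, rose in both knockdowns. It measured 5.04 ± 0.50 units in siControl, 7.74 ± 0.71 in siMyT1 (log2 difference 0.60, SE 0.10, adjusted p = 0.00280) and 6.57 ± 0.71 in siLSD1 (0.37, SE 0.10, adjusted p = 0.0326). Averaging all Aldh2 probe sets ended both calls (adjusted p up to 0.530), and the siLSD1 call was lost without siControl replicate 2 or 3 or siLSD1 replicate 1 (up to 0.129) and in limma without the intensity trend (0.101). Maob, the other monoamine oxidase, averaged at most 0.0584 units in any group, and Pnmt, which makes adrenaline, ranged from 0.106 to 1.01 units within siControl.

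Among 10 genes of copper and ascorbate supply and cytochrome b561 relatives, 0 passed against control. Slc31a1, a copper importer, measured 5.42 ± 0.62, 5.51 ± 0.21 and 6.65 ± 0.32 units in siControl, siMyT1 and siLSD1, and Slc23a2, an ascorbate transporter, measured 5.33 ± 0.20, 4.99 ± 0.12 and 5.90 ± 0.30. In siMyT1 both were lower than in siLSD1, Slc31a1 by -0.26 (adjusted p = 0.0448) and Slc23a2 by -0.23 (adjusted p = 0.0335) on the log2 scale. Each call was lost under 9 of 16 alternatives: for Slc31a1 without any single array of either group (adjusted p up to 0.171), for Slc23a2 without any of them except siMyT1 replicate 1 (up to 0.125), and for both with probe sets averaged (0.968 and 0.578). In the transporter list 0 of 4 passed, with Slc29a4, a low-affinity monoamine transporter, at 10.8 ± 0.25, 9.63 ± 0.60 and 10.6 ± 0.93 units. Of 6 measured dopamine and adrenergic receptors 0 passed, and they summed to at most 1.71 units on any array.

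**Figure D4:**
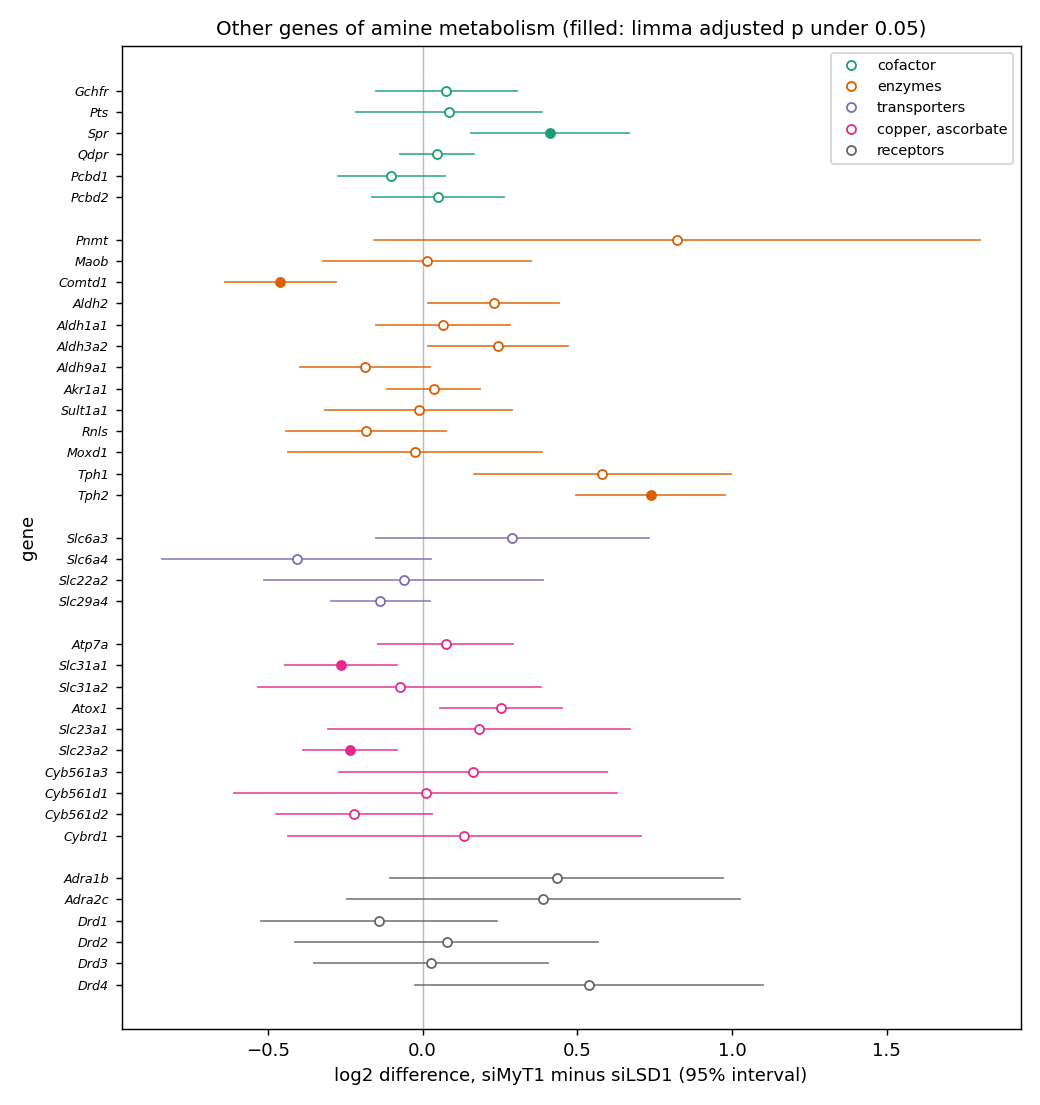
Log2 difference of siMyT1 minus siLSD1 (x axis, limma estimate with 95% interval) for the 39 measured genes of the 5 amine lists (y axis, coloured by list); filled points passed an adjusted p of 0.05. Spr and Tph2 are filled above 0 (0.41 and 0.74) and Comtd1, Slc31a1 and Slc23a2 below 0 (-0.46, -0.26 and -0.23).

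Markers of the sympathoadrenal lineage differed beside these genes: of 9 measured, 4 fell in siMyT1 (2.29% of all genes) and 0 rose (5.12%). In siLSD1 2 rose (3.97% of all genes) and 1 fell (4.93%), and in siMyT1 against siLSD1 5 were lower (5.58%) and 0 higher (13.2%). Their summed level was 183 to 199 units in siControl, 143 to 153 in siMyT1 and 193 to 215 in siLSD1. The largest parts of that sum were Hand2 (51.7, 37.6 and 39.8 units) and Chgb (49.8, 30.5 and 55.5) in siControl, siMyT1 and siLSD1. Phox2a measured 21.3 ± 0.16 units in siControl, 17.0 ± 0.90 in siMyT1 and 28.1 ± 1.7 in siLSD1, the same order as Th and Slc18a2, and passed in all 3 comparisons (adjusted p = 0.00757, 0.00132 and 7.33e-06; the siMyT1 call ended in limma without the intensity trend, at 0.0553). Gata2 rose in siLSD1 by 0.62 (adjusted p = 0.000395) and differed by -0.06 in siMyT1 (adjusted p = 0.768). Chga and Chgb, granins of the vesicles that store catecholamines, fell in siMyT1 by 0.43 and 0.71 (adjusted p = 0.00511 and 3.15e-05) and did not pass in siLSD1 (0.12 and 0.15, adjusted p = 0.450 and 0.173). Hand2 fell in siMyT1 by 0.46 and in siLSD1 by 0.38 (adjusted p = 0.00331 and 0.00698), the latter not passing after median centring or with probe sets averaged (up to 0.107). Gata3 and Isl1 went the other way in siMyT1 (0.36 and 0.14), all arrays above control, without passing (adjusted p = 0.101 and 0.262). Insm1 and Tfap2b differed by -0.08 and -0.10 in siMyT1 and 0.27 and 0.48 in siLSD1, none passing (0.0711 to 0.848). Insm1 was lower in siMyT1 than in siLSD1 (-0.34, adjusted p = 0.0126). That call was lost with probe sets averaged, without the intensity trend or without siLSD1 replicate 3 (up to 0.0587). Of 7 mesenchymal markers 1 rose in siMyT1 (5.12% of all genes) and 0 fell (2.29%). The 1 that rose was the matrix gene Fn1 (28.9 ± 1.8 to 49.3 ± 1.9 units, adjusted p = 2.76e-05). The list summed to 167 to 184 units in siControl, 213 to 225 in siMyT1 and 169 to 185 in siLSD1. Most of that sum is Vim, the intermediate filament vimentin, at 148 ± 7.4, 168 ± 7.1 and 143 ± 7.2 units in siControl, siMyT1 and siLSD1. Vim was higher in siMyT1 than in siLSD1 (0.23, adjusted p = 0.0434), a call kept under 6 of 16 alternatives (adjusted p up to 0.684), and did not pass against control. Col1a2 averaged 0.367 to 0.466 units, and Twist1, Prrx1, Col1a1 and Snai2 averaged below 0.196 units in every group. The 4 measured glial markers summed to 1.48 to 2.45 units in siControl, 2.33 to 2.95 in siMyT1 and 1.62 to 2.10 in siLSD1. Most of it is Erbb3, a neuregulin receptor, which was higher in siMyT1 than in siLSD1 (0.55, adjusted p = 0.0473), a call kept under 6 of 16 alternatives (adjusted p up to 0.167), and did not pass against control. The part of these markers in the levels of Th and Slc18a2 was not tested.

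Genes with the most similar profiles were sought among 3121 others that passed the F-test and were at least as bright as the median gene. By Pearson correlation over the 9 arrays, the closest to Slc18a2 were Ampd3, an AMP deaminase (r = 0.996), Tesc, a calcium-binding protein (0.996), and Gpr12, an orphan G protein-coupled receptor (0.995). The closest to Th were Ampd3 (0.990), Dkk3, a secreted Dickkopf family protein (0.988), and Tesc (0.986). These values rest on 3 group means and are descriptions, and within groups the correlations ranged from 0.26 (Th and Tesc) to 0.75 (Th and Dkk3). Ampd3 measured 8.64 ± 0.36 units in siControl, 6.46 ± 0.29 in siMyT1 and 17.9 ± 0.83 in siLSD1, or 74.8% and 207% of control, beside 77.4% and 206% for Slc18a2. Dkk3 was at 74.1% and 161% of control, beside 81.0% and 153% for Th. The fall of Tesc in siMyT1 (-0.39, adjusted p = 0.00226 by limma) depended on the probe set. It did not pass without _x_at and _s_at probe sets (-0.15, adjusted p = 0.736) or with probe sets averaged (-0.27, 0.204). The fall of Dkk3 in siMyT1 did not pass in limma without the intensity trend (adjusted p = 0.0532). Gpr12 did not pass in siMyT1 against siControl (-0.38, adjusted p = 0.118).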

How the data were processed

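The authors deposited linear intensities for 45101 probe sets on 9 arrays in the series matrix, and per the labels the RNA was labelled with biotin; how they were summarised, background-corrected and scaled: not given in the sources used here. Probe sets were named from the platform annotation (34945 with 1 symbol; 9211 unlisted), with the probe set of the highest mean standing for each of 18193 genes. The pseudocount was 32 after all values were multiplied by 1 constant, 163.6, which sets the mean of the 2% trimmed array means to 500; it equals 0.196 deposited units. limma 3.58.1 (R 4.3.3) was fitted over all 9 arrays with an intensity trend (6 residual and 6.84 prior degrees of freedom), two-sided, with Benjamini-Hochberg adjustment over all genes; a second fit covered every non-control probe set. With 3 arrays against 3, an exact permutation test could not go below p = 0.1. Simulated arrays of the 18193 genes held 100 changed genes at each fold. In siMyT1 against siControl 54% of 1.5-fold and 81% of 2-fold changes were recovered, and in siLSD1 against siControl 51% and 86%. There, 12 and 7 unchanged genes were called. In the data 1348 and 1619 genes were called, and the adjustment depends on that number, so these shares may not carry over. Array number limits the precision. The members, gene lists and motifs were chosen with earlier results of these data known. Named genes are the members, the siRNA targets, up to 4 passing genes per list (others and markers were named after their values were seen) and the 3 closest profiles. Alternatives covered scaling, pseudocount, filters, probe set choice, variance model, replicate block and leaving out arrays.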

Additional observations from a re-analysis of the deposited data

How the results depend on the processing

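Slc18a2 in all 3 comparisons, and Th in siLSD1 against siControl and siMyT1 against siLSD1, kept direction and call under all 16 alternatives, each array left out included (Slc18a2 in siMyT1 -0.40 to -0.32, adjusted p up to 0.0333; Th in siLSD1 0.50 to 0.66, up to 0.0221). Th in siMyT1 stayed at -0.33 to -0.23 and passed under none (smallest adjusted p = 0.0598). In siMyT1 against siControl 2 members were called after quantile normalization, median centring or the filter on dim probe sets, Dbh being the other.

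Over all genes, siMyT1 against siControl gave 1348 calls, 2460 after quantile normalization, 862 with probe sets averaged, 765 without the trend and 650 (without siControl replicate 1) to 1450 (without siMyT1 replicate 1) with 1 array left out, with 744, 699 and 709 without siControl replicate 3, siMyT1 replicate 2 or siMyT1 replicate 3. In siLSD1 against siControl the 1619 calls became 2804 after quantile normalization, 1079 with probe sets averaged and 965 (without siLSD1 replicate 3) to 1318 with 1 array left out, and 970 without siControl replicate 1. In siMyT1 against siLSD1 the 3423 calls became 4332 after quantile normalization, 2528 with probe sets averaged and 2331 to 3705 with 1 array left out. Same-numbered arrays did not deviate together (r -0.03 to 0.04), and a replicate block gave 935, 1259 and 2927 calls with the same members called.

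Uncalled differences changed sign in siMyT1 against siLSD1 for Ddc (-0.031 after quantile normalization, -0.025 after median centring) and Gch1 (-0.026 after median centring, -0.047 with probe sets averaged). Averaging also turned Slc18a1 (-0.023), Slc6a2 (0.062), Maoa (-0.058) and Gch1 (-0.033) in siMyT1, and Maoa in siLSD1 (-0.024) and in siMyT1 against siLSD1 (-0.034). With 1 array left out, the siMyT1 differences ran from -0.0092 (without siControl replicate 1) to 0.10 for Cyb561, from -0.0031 (without siControl replicate 3) to 0.25 for Slc18a1 and from -0.28 to 0.12 (without siMyT1 replicate 1) for Slc6a2. Gch1 in siLSD1 ran from -0.024 (without siLSD1 replicate 1) to 0.063, and Ddc in siMyT1 against siLSD1 from -0.093 (without siMyT1 replicate 2) to 0.25. The filter on dim probe sets left out Maoa. The scaling, pseudocount, filter and probe set settings change the values or the genes tested by construction. The cause of the sign changes was not tested. Ddc, Slc18a1 and Maoa lay near the array medians, and the part of this in their uncalled differences was not tested.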

Other observations

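Tph2, the neuronal tryptophan hydroxylase that starts serotonin synthesis and is a relative of tyrosine hydroxylase, had the opposite order of levels to Th. It measured 2.27, 2.35 and 2.21 units in siControl, 2.64, 2.74 and 2.94 in siMyT1, and 1.46, 1.50 and 1.81 in siLSD1, with no overlap between groups. By limma it fell in siLSD1 (log2 difference -0.47, SE 0.11, adjusted p = 0.0177), was higher in siMyT1 than in siLSD1 (0.74, SE 0.11, adjusted p = 0.000515) and did not pass in siMyT1 against siControl (0.27, adjusted p = 0.191). The fall in siLSD1 was lost without siControl replicate 1 or 2 or siLSD1 replicate 1 or 2 (adjusted p up to 0.0724). Tph1, the other tryptophan hydroxylase, averaged 0.555, 0.782 and 0.462 units in siControl, siMyT1 and siLSD1 and did not pass. Slc6a4, the serotonin transporter, averaged at most 0.107 units in any group. Tph2 was described after its values were seen.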
